A study of Mus musculus with 6 samples.

Results

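The genes described here code for collagens, laminin chains and the matrix glycoproteins fibronectin, SPARC, tenascin-C, the nidogens and perlecan. They were taken by symbol from the count tables: collagen chain symbols, laminin alpha, beta and gamma chain symbols, and Fn1, Sparc, Tnc, Nid1, Nid2 and Hspg2. The rule matched 61 of 24982 gene symbols, and the 36 with at least 60 counts summed over the 6 samples are the members. The study lowered YY1, a DNA-binding zinc finger protein with both activating and repressing roles, in KMWT1, a single mouse glioma cell line, and asked what this does to RNA levels. Its 2 groups are 3 samples given a control siRNA (samples 1, 2 and 3) and 3 given a pool of siRNAs against YY1 (samples 4, 5 and 6). All 6 were grown in medium with serum and taken 48 hours after transfection. The labels do not say that the samples of a group were separate cultures or transfections, so the p-values reflect only how these samples vary, and that variation may be technical.

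Collagen chains wind around each other into triple helices, through stretches in which glycine recurs at regular steps, and the type of collagen is set by which chains combine. Fibrillar collagens form the ropes of connective tissue, collagen IV forms the sheet of the basement membrane, and laminins, each built from an alpha, a beta and a gamma chain, form a second sheet that nidogen and perlecan tie to the first. Glioma cells and the vessel walls of gliomas both deposit such matrix, and fibronectin, tenascin-C and SPARC are among its best known glioma components.

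Between 15738457 (sample 6) and 20644057 (sample 1) counts fell in genes. Sample 6 held the fewest counts, its table is the only one not marked as combined, and its share of counts in no gene was 11.3%, against 7.87% to 10.7% in the others. Yy1 itself was at 127, 128 and 126 CPM in the controls and 81.2, 77.6 and 78.6 CPM after YY1 siRNA, with no overlap between the groups (log2 fold change -0.68, SE 0.064, edgeR adjusted p 0.00154). Here and below, CPM are read counts scaled to a common library size with TMM factors, values are in sample order, and the test is edgeR's quasi-likelihood F test, adjusted over all 12148 genes tested by the method of Benjamini and Hochberg. Of the markers for the labelled cell type, Sox2, Sox9, Nes, Vim and Cd44 lay between 246 and 11901 CPM in every sample, while Olig2, Prom1 and Fabp7 had 0 counts and Gfap at most 2 counts in a sample. Of 13 fibroblast and pericyte markers, 3 were under 1 CPM, with Thy1 at 0 counts, Lum at 1 and Tagln at 7 in all, while Pdgfra, Pdpn, Pdgfrb and Cspg4 were read at 335, 453, 62.1 and 34.4 CPM on average. Of 11 endothelial markers 8 were under 1 CPM, with Cldn5 and Erg at 0, and of 11 microglia and macrophage markers 8 were under 1 CPM, with Aif1 at 2 counts in all.

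No member changed past the threshold. Of the 36 members, 36 were tested and 0 had an adjusted p under 0.05 with edgeR. Of all 12148 genes tested only 1 passed (0.00823%), Yy1 itself, so this threshold called no gene but the siRNA target. With DESeq2 0 members passed, where 0.148% of all genes tested did. At an unadjusted p under 0.05 there were 3 members with each tool: Col5a3 and Lama5 lower and Lamb2 higher. This is 8.33% of the members, against 10.8% of all genes tested with edgeR (5.38% higher and 5.46% lower). With DESeq2 the share was 5.53% of the 17048 genes with any counts. Without YY1 siRNA sample 5 the edgeR count was 7 of 36, all lower, where 11.7% of all genes tested had such a p. Lama4, Fn1, Hspg2, Col6a3 and Col12a1 then joined Col5a3 and Lama5, and Lamb2 did not. Fitted changes were below 0 for 27 of 36 members (75.0%), against 49.8% of all genes tested, with a median log2 fold change of -0.10 against 0.0007 over all genes. Leaving out sample 6 gave a median of -0.037 with 23 members below 0, and leaving out sample 1 gave -0.054 with 24. Leaving out sample 5 gave -0.18 with 29, and leaving out sample 3 gave -0.16 with 29. When transcript length and GC content entered as offsets, the median was -0.040, with 22 members below 0. In 31 of 36 members (86.1%) the 95% interval of the fold change lay within 1.5-fold in either direction, against 82.1% of all genes tested.

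**Figure D1:**
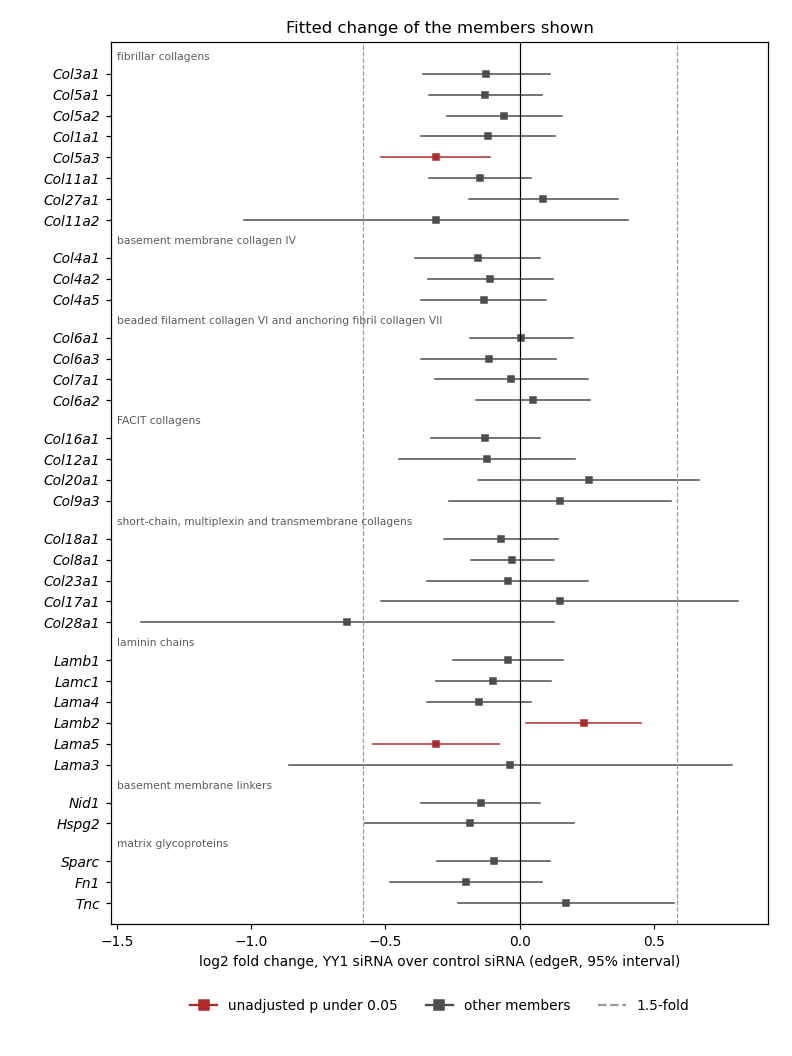
Fitted log2 fold change of 35 members, YY1 siRNA over control siRNA (horizontal axis), each with its 95% interval from edgeR, grouped by class (vertical axis); dashed lines mark 1.5-fold. Intervals lie within the dashed lines for 30 of the 35 members shown, and the 3 members in red, Col5a3, Lama5 and Lamb2, are those with an unadjusted p under 0.05.

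The 25 dropped symbols held 0 to 34 counts each over the 6 samples, and 6 of them held 0. Just inside the minimum were Col28a1 with 60 counts and Lama3 with 64, and just outside it Lama2 with 34 and Lamb3 with 26. Several dropped genes code for chains or relatives that pair with strongly read members. Col1a1, the alpha1 chain of type I collagen, had 8906 counts over the 6 samples, while Col1a2, whose alpha2 chain completes the usual type I trimer, had 9, with 0 to 4 in a sample. Per kilobase of exon, the Col1a1 count was 1874 times that of Col1a2 (exact 95% interval 987 to 4099, counting error only), and 892 times with the longest transcript as the length, an alternative chosen here after seeing the data. Nid1 had 64511 counts and Nid2, the other nidogen, had 2 in all. The exons of Nid2 overlap those of Rtraf on the opposite strand by 437 bases. Col8a1 had 10571 counts and Col8a2, the second chain of type VIII collagen, had 1. On the X chromosome, Col4a5 had 13918 counts and its head-to-head neighbour Col4a6 had 9. Among laminin alpha chains Lama1 had 1 count in all and Lama2 had 34. GENCODE M21 places no other gene over the exons of Col1a2, Col8a2, Col4a6 or Lama1. The annotation used for the counting was not given, and the cause of these low counts was not tested. Reads that the submitters' counting left as ambiguous, 1.01% to 1.15% of a sample's counts, are not in these values.

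**Figure D2:**
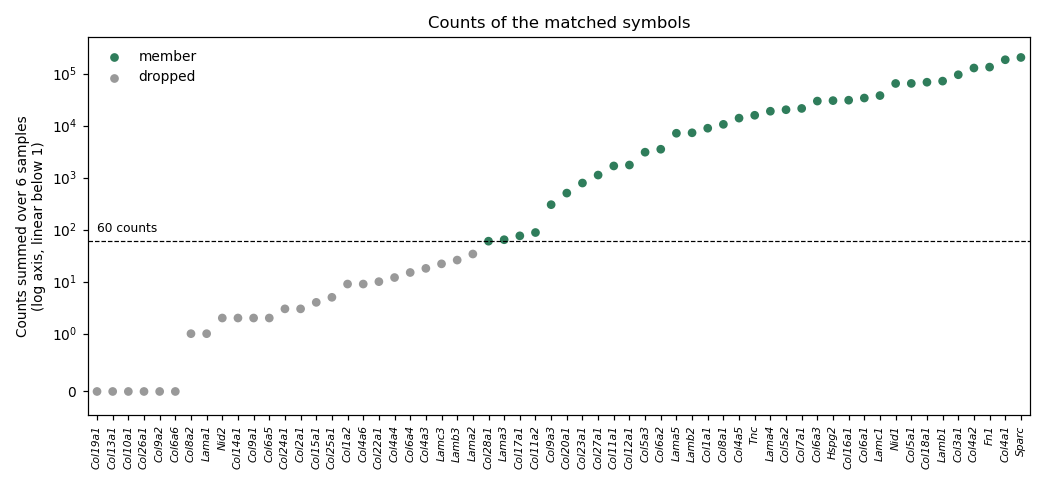
Counts summed over the 6 samples (vertical axis, logarithmic above 1) for 60 of the 61 matched symbols (horizontal axis, in rising order); green points are members, grey points were dropped and the dashed line is the minimum of 60. The dropped symbols reach 34 counts at most and the members run from 60 to 204090, with Col1a2, Nid2, Col8a2 and Lama1 among the lowest.

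Start-site sequence was matched by symbol in RefSeq's promoter windows (250 bases before to 50 after a start, GRCm38.p6, the same assembly as mm10), which gave 30 windows for 27 of the 36 members. Among the unmatched were Col1a1, Col5a2, Col9a3, Col12a1, Fn1, Lama3, Lama4 and Lamc1. Bases before the RefSeq start are shown for the 3 members with the smallest p-values and for Col1a2, the chain with almost no counts. Each is the longest run that no GENCODE M21 exon covers (250 bases for Col5a3 and Lama5, 124 for Lamb2 and 123 for Col1a2). The runs of Lamb2 and Col1a2 stop short of the RefSeq start, so the bases nearest that start are not shown for them. Each reads 5′ to 3′ on the gene's strand, and capitals mark CCAAT and GGGCGG on either strand. These are windows chr9:20815068-20815317 (minus strand), chr2:180225860-180226109 (minus), chr9:108479612-108479735 (plus) and chr6:4505370-4505492 (plus).
Col5a3: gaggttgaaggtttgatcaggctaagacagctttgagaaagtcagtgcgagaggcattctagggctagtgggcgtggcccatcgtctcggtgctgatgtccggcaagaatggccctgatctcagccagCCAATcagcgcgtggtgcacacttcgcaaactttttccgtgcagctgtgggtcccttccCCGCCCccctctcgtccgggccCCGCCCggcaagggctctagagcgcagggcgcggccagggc
Lama5: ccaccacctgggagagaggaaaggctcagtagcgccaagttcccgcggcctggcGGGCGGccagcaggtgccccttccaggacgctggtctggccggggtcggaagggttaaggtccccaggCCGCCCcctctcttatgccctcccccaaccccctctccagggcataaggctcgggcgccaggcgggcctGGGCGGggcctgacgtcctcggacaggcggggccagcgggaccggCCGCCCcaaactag
Lamb2: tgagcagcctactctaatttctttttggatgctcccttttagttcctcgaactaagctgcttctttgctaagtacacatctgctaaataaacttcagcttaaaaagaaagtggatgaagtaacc
Col1a2: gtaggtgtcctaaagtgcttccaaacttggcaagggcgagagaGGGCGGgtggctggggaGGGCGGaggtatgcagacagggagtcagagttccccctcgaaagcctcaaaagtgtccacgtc

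The YY1 motif AANATGGCG, searched on both strands, was in 0 of the 30 member windows and in 2.38% of all 32851 windows. Its shorter core AANATGG, which every match of the longer motif also holds, was in 2 of 30 (6.67%), both of Col18a1, against 16.1% of all windows. CCAAT was in 36.7% of member windows and 37.4% of all windows. GGGCGG, the core of the GC box, was in 70.0% of member windows, 47.4% of the 19 windows of dropped symbols and 35.7% of all windows. Members had passed a count minimum, which was not asked of all windows. Some member windows overlap: those of Col4a1 and Col4a2, those of Col6a2 and those of Tnc. In the runs shown, Lama5 has 4 GGGCGG matches and 19 CpG dinucleotides, and Col5a3 has 2 GGGCGG matches, 17 CpG dinucleotides and 1 CCAAT. The shorter run of Col1a2 has 2 GGGCGG matches and 5 CpG dinucleotides, and that of Lamb2 has 0 and 1. Over its full window Col1a2 has 2 GGGCGG matches, 13 CpG dinucleotides and 2 CCAAT, and Lamb2 has 0, 4 and 0. A GGGCGG match thus stands in the run of Col1a2, with almost no counts, and none in that of Lamb2, which was read in all samples. The Col1a2 run precedes its RefSeq start but lies inside the GENCODE M21 gene, which begins at chr6:4504814. Over the full windows the median number of CpG dinucleotides was 14 for members, 8 for dropped symbols and 7 over all windows. These matches describe the letters in the windows and no binding was measured.

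Among the 8 fibrillar collagens, 0 passed and the median log2 fold change was -0.13. Of the 8, 7 had a fitted change below 0, against 49.8% of all genes tested. Control sample 1 was the highest for 6 of the 8 and YY1 siRNA sample 6 the lowest for 5. Col3a1, which forms type III fibrils of soft tissue, was at 941, 874 and 811 CPM in the controls and 873, 864 and 672 CPM after YY1 siRNA. YY1 siRNA sample 6 was the lowest and the other 2 YY1 siRNA samples lay among the controls (log2 fold change -0.12, SE 0.11, edgeR adjusted p 0.673). Col5a1, a chain of type V collagen, which seeds fibrils and limits their width, was at 646, 605 and 545 CPM in the controls and 534, 608 and 499.6 CPM after YY1 siRNA. Its partner Col5a2 was at 194, 190.4 and 163 CPM in the controls and 184, 191 and 151 CPM after YY1 siRNA, and in both genes the groups overlapped. Col1a1 (plus strand, chr11:94936224-94953042, mm10) was at 92.6, 80.9 and 72.4 CPM in the controls and 75.6, 85.8 and 65.2 CPM after YY1 siRNA, again with overlapping groups and a log2 fold change of -0.12 (95% interval -0.37 to 0.13).

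Col5a3, a minor chain of type V collagen, had the smallest p of all members. The gene (ENSMUSG00000004098.7) lies on the minus strand at chr9:20770050-20815067 (mm10). It was at 33.3, 30.8 and 26.5 CPM in the controls and 23.3, 25.1 and 24.6 CPM after YY1 siRNA. The 3 YY1 siRNA samples lay closely together below all 3 controls, among which control sample 3 was the nearest. The log2 fold change was -0.31 (SE 0.094, unadjusted p 0.00555, edgeR adjusted p 0.267, DESeq2 adjusted p 0.455). Across 16 alternative fits it ranged from -0.40 to -0.23, with adjusted p 0.131 to 0.880. Col11a1, a fibril chain best known from cartilage, also had all YY1 siRNA samples below all controls, at 15.9, 15.7 and 15.4 CPM in the controls and 14.6, 14.3 and 13.3 CPM after YY1 siRNA (log2 fold change -0.15, SE 0.088, edgeR adjusted p 0.529). Complete separation of this kind, all YY1 siRNA samples lower, held for 3 of 36 members (8.33%) and for 8.91% of all genes tested. Col28a1 was the remaining one, at 0.577, 0.779 and 0.582 CPM in the controls and 0.367, 0.478 and 0.392 CPM after YY1 siRNA, a gene with 6 to 15 counts per sample whose interval, -1.41 to 0.13, spans no change. Separation in the other direction held for 0 members and 7.36% of all genes tested, and in either direction for 16.3% of all genes. Col27a1 (7.83 to 11.0 CPM) and Col11a2 (0.472 to 0.986 CPM) had overlapping groups.

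Collagen IV, the network collagen of basement membranes, had the highest level of the collagens per kilobase of exon. None of its 3 genes passed, and their median log2 fold change was -0.13. All 3 had a fitted change below 0, against 49.8% of all genes tested. In all 3, control sample 1 was the highest of the 6 samples and YY1 siRNA sample 6 the lowest, so the 3 signs are not independent. Col4a1 (ENSMUSG00000031502.11, minus strand, chr8:11198423-11312826) was at 1846, 1735 and 1579 CPM in the controls and 1605, 1683 and 1340.0 CPM after YY1 siRNA, and Col4a2 (ENSMUSG00000031503.13, plus strand, chr8:11312805-11449287) at 1269.7, 1190.0 and 1067 CPM in the controls and 1095, 1218 and 953 CPM after YY1 siRNA. In both genes control sample 1 was the highest and YY1 siRNA sample 6 the lowest, and the groups overlapped. The log2 fold changes were -0.16 (95% interval -0.39 to 0.076) and -0.11 (95% interval -0.34 to 0.12). The genes start head to head, and the starts overlap by 22 bases, shown on the plus strand because the pair shares it, with its GGGCGG in capitals (chr8:11312805-11312826, GRCm38.p6).
Shared start of Col4a1 and Col4a2: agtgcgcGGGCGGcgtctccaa
The collagen IV trimer of most tissues holds 2 alpha1 chains and 1 alpha2 chain. The Col4a1 count per kilobase of exon was 1.29, 1.29 and 1.31 times that of Col4a2 in the controls and 1.30, 1.23 and 1.25 times after YY1 siRNA. The ratio was thus narrower in range than either gene's level, and the groups overlapped (exact permutation p 0.3, two-sided; the smallest that 3 against 3 allows is 0.1). Col4a5, a chain of kidney and muscle basement membranes, was at 138, 137 and 112 CPM in the controls and 122, 129 and 101 CPM after YY1 siRNA, also with overlapping groups.

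Collagen VI forms beaded filaments around cells, and collagen VII the anchoring fibrils of skin. None of the 4 genes passed, and 2 were below 0, against 49.8% of all genes tested (median log2 fold change -0.013). Col6a1 was at 314, 319 and 268 CPM in the controls and 321, 307 and 276 CPM after YY1 siRNA, the member whose fitted change lay nearest 0 (log2 fold change 0.0062, 95% interval -0.19 to 0.20). Col6a3 was at 296, 274 and 250.1 CPM in the controls and 217, 299 and 241 CPM after YY1 siRNA and Col7a1 at 208, 184 and 185 CPM in the controls and 152, 225 and 188 CPM after YY1 siRNA. In both, YY1 siRNA sample 4 was the lowest of the 6 and sample 5 the highest. Col6a2 was at 27.0 to 35.6 CPM, with samples 4 and 5 above the controls and sample 6 below them. Per kilobase of exon Col6a1 stood 17.1 to 19.5 times above Col6a2, a mean of 18.4 that becomes 11.6 when the longest transcript is taken as the length. Col6a3 stood at 0.247 to 0.357 of Col6a1. The chains are found in equal number in the usual collagen VI trimer. In both ratios the groups overlapped (exact permutation p 1.0 and 0.7, two-sided).

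Of the collagens that decorate fibrils, called FACIT collagens, Col16a1 was at 307, 288 and 259 CPM in the controls and 276, 277 and 228 CPM after YY1 siRNA, with YY1 siRNA sample 6 lowest and overlapping groups. Col12a1 was at 16.8, 16.9 and 14.8 CPM in the controls and 11.7, 18.5 and 14.3 CPM after YY1 siRNA, where YY1 siRNA samples 4 and 5 were the lowest and the highest. Col20a1 was at 3.94, 4.15 and 4.29 CPM in the controls and 3.41, 5.79 and 5.68 CPM after YY1 siRNA, with samples 5 and 6 above the controls and sample 4 below them. Its log2 fold change was 0.26, and across the alternative fits it ran from -0.081 with the no-gene share as covariate to 0.48 without sample 4 (unadjusted p 0.0051, edgeR adjusted p 0.130). Col9a3 was at 2.16 to 3.26 CPM. None of these 4 passed, nor did any of the 5 short-chain, multiplexin and transmembrane collagens. Of these classes 2 and 4 were below 0, against 49.8% of all genes tested. Col18a1, the basement membrane collagen that gives rise to endostatin, was at 643, 653 and 562 CPM in the controls and 645, 601 and 523 CPM after YY1 siRNA, with overlapping groups. Col8a1, a short-chain collagen of vessel walls and the cornea, was at 94.8, 96.8 and 93.1 CPM in the controls and 99.1, 93.7 and 86.2 CPM after YY1 siRNA. Samples 4 and 6 were its highest and lowest values, and its log2 fold change was -0.028 (95% interval -0.18 to 0.13). Of the transmembrane collagens, Col23a1 was at 6.78, 8.51 and 6.08 CPM in the controls and 6.50, 7.06 and 7.18 CPM after YY1 siRNA, with all YY1 siRNA samples inside the range of the controls. Col17a1 (0.577 to 0.849 CPM) also had overlapping groups.

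**Figure D3:**
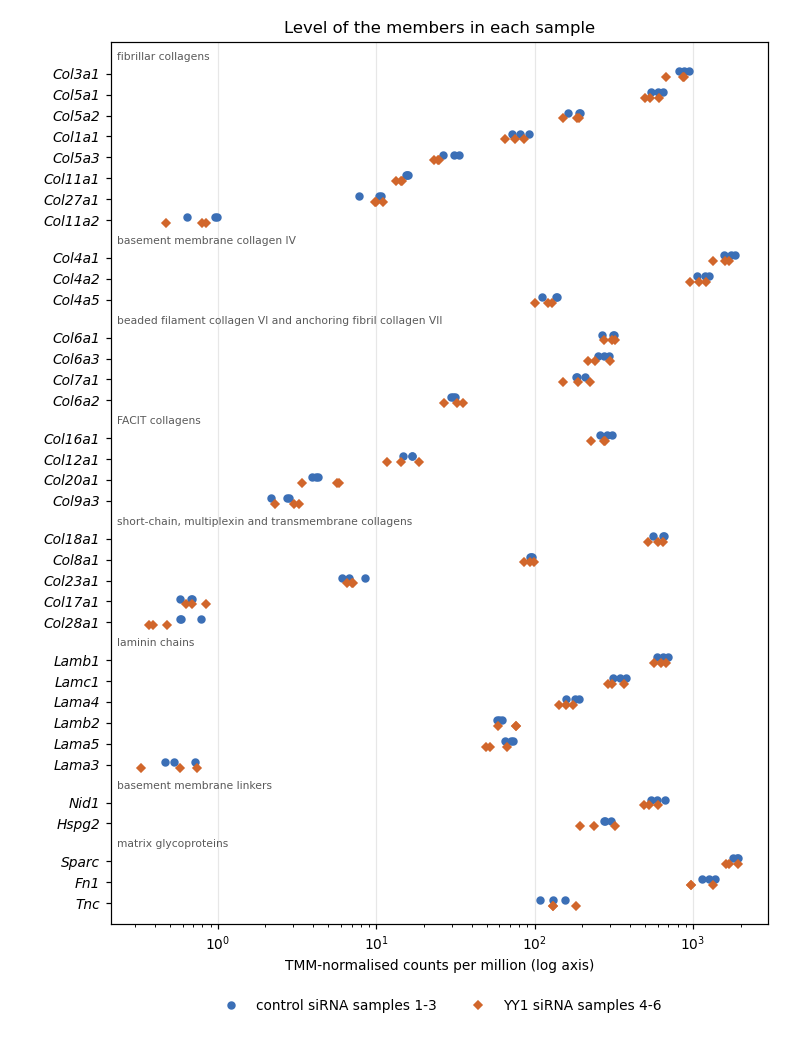
Level of 35 members in CPM after TMM scaling (horizontal axis, logarithmic), by class and gene (vertical axis); each point is 1 sample, blue circles for control siRNA and orange diamonds for YY1 siRNA. Levels run from 0.326 CPM for Lama3 to 1936 CPM for Sparc, and the groups are apart in Col5a3, Col11a1 and Col28a1.

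Laminin chains gave 2 of the 3 members with an unadjusted p under 0.05, and these had opposite signs. The 2 genes are 28.6% of the 7 chains, against 10.8% of all genes tested, a share that rests on few genes. None of the 7 chains passed and the median log2 fold change was -0.046. Of the 7, 5 were below 0, against 49.8% of all genes tested. Lama5 codes for the alpha5 chain, the most widespread laminin alpha chain of adult basement membranes (ENSMUSG00000015647.9, minus strand, chr2:180176373-180225859). It was at 73.0, 71.2 and 65.3 CPM in the controls and 49.4, 67.0 and 52.2 CPM after YY1 siRNA. YY1 siRNA samples 4 and 6 lay below all controls and sample 5 lay among them. The log2 fold change was -0.31 (SE 0.11, unadjusted p 0.0133, edgeR adjusted p 0.353), and it ranged from -0.46 to -0.22 across the alternative fits. Lamb2, the beta2 chain of mature vessel, kidney and nerve-muscle basement membranes (ENSMUSG00000052911.9, plus strand, chr9:108479736-108490530), was at 62.1, 59.4 and 58.1 CPM in the controls and 58.7, 76.5 and 76.9 CPM after YY1 siRNA. Here samples 5 and 6 lay above all controls and sample 4 lay among them. The log2 fold change was 0.24 (SE 0.098, unadjusted p 0.0322, edgeR adjusted p 0.420). It was 0.36 without sample 4 (edgeR adjusted p 0.0553) and 0.081 in a fit with the no-gene share of each sample as covariate (adjusted p 0.842). That share was higher in samples 5 and 6, at 10.7% and 11.3%, than in sample 4, at 7.87%, and in the controls, at 7.99% to 9.03%, and its part in the Lamb2 values was not tested beyond this fit.

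The chain genes Lamb1, Lamc1, Lama4 and Lama3 had overlapping groups. Lamb1, the beta1 chain, was at 696, 646 and 595 CPM in the controls and 633, 679.6 and 564 CPM after YY1 siRNA, and Lamc1, the gamma1 chain found in most laminins, at 377, 348 and 312 CPM in the controls and 311, 367 and 292 CPM after YY1 siRNA. Lama4, the alpha4 chain of vessel basement membranes, was at 189.6, 179.9 and 159 CPM in the controls and 158, 174 and 143 CPM after YY1 siRNA (log2 fold change -0.15, SE 0.089, edgeR adjusted p 0.528). Lama3, an alpha chain of epithelial laminin, had 5 to 15 counts per sample. Lamb1 stood 1.54 to 1.70 times above Lamc1 per kilobase of exon. That mean of 1.59 becomes 2.51 with the longest transcript as the length. The Lamb2 to Lamb1 ratio was 0.145, 0.150 and 0.159 in the controls and 0.151, 0.184 and 0.222 after YY1 siRNA (exact permutation p 0.2, two-sided), a mean of 0.167 that becomes 0.105 with the longest transcript as the length. Over the 6 chain ratios compared, the adjusted p was 0.6 to 1.0, and none reached the smallest p that the design allows.

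The linkers of the basement membrane had overlapping groups. Nid1, which bridges laminin and collagen IV, was at 666, 592 and 541 CPM in the controls and 529, 606 and 492 CPM after YY1 siRNA, with control sample 1 highest and YY1 siRNA sample 6 lowest. Hspg2, the gene of the heparan sulphate proteoglycan perlecan, was at 303, 276 and 277 CPM in the controls and 194, 321 and 236 CPM after YY1 siRNA. YY1 siRNA samples 4 and 5 were its lowest and highest values, and its log2 fold change was -0.19 (95% interval -0.57 to 0.20).

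Of the matrix glycoproteins, Sparc, a calcium and collagen binding protein, had the highest level of all members per kilobase of exon, 478 CPM per kilobase, followed by Col4a1 (219), Col4a2 (171), Fn1 (101), Col18a1 (86.1), Col3a1 (85.5) and Nid1 (82.2). Col18a1, Col3a1 and Nid1 did not differ beyond their spread over samples. The order depends on the length used: with the longest transcript, again chosen after seeing the data, it was Sparc (787), Col4a1 (247), Col4a2 (176), Col3a1 (151), Fn1 (142), Lamb1 (109.9), Col18a1 (108) and Nid1 (93.7). Sparc was at 1924, 1904 and 1788 CPM in the controls and 1936, 1686 and 1629 CPM after YY1 siRNA. YY1 siRNA sample 4 was the highest of the 6 samples and samples 5 and 6 were the lowest (log2 fold change -0.097, SE 0.097, edgeR adjusted p 0.715). Fn1, the gene of fibronectin, which integrins bind, was at 1375, 1261 and 1141 CPM in the controls and 969.5, 1341 and 979 CPM after YY1 siRNA, with samples 4 and 6 below all controls and sample 5 among them (log2 fold change -0.20, SE 0.13, edgeR adjusted p 0.562). Its exons overlap those of Apol7d on the opposite strand by 292 bases. Tnc, the gene of tenascin-C, was at 156, 131 and 108 CPM in the controls and 131, 184 and 132 CPM after YY1 siRNA. Sample 5 was the highest, samples 4 and 6 were close to control sample 2, and the log2 fold change was 0.17 (95% interval -0.23 to 0.57).

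The members' median level varied within the groups as well as between them. A member's level was set relative to its mean over the 6 samples, and the median of the 36 was 0.17, 0.077 and -0.060 on the log2 scale in the controls and -0.083, 0.087 and -0.17 after YY1 siRNA. YY1 siRNA sample 5 thus lay above 2 of the 3 controls, and control sample 3 lay close to YY1 siRNA sample 4. Control sample 1 held the highest value for 16 of 36 members (44.4%), against 18.2% of all genes tested, and YY1 siRNA sample 6 the lowest for 18 (50.0%), against 29.5%. YY1 siRNA sample 4 held the lowest for 10 (27.8%), against 17.7%. The median coefficient of variation within a group was 8.60% for members in the controls and 12.5% after YY1 siRNA, against 5.67% and 8.93% over all genes tested. Together the members took 1.31%, 1.23% and 1.13% of the counts in genes in the controls and 1.12%, 1.24% and 0.980% after YY1 siRNA. Sparc, Col4a1, Fn1, Col4a2 and Col3a1 made up 55.4% to 57.3% of these. In these bulk samples, fewer cells of a type and less RNA per cell cannot be told apart.

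**Figure D4:**
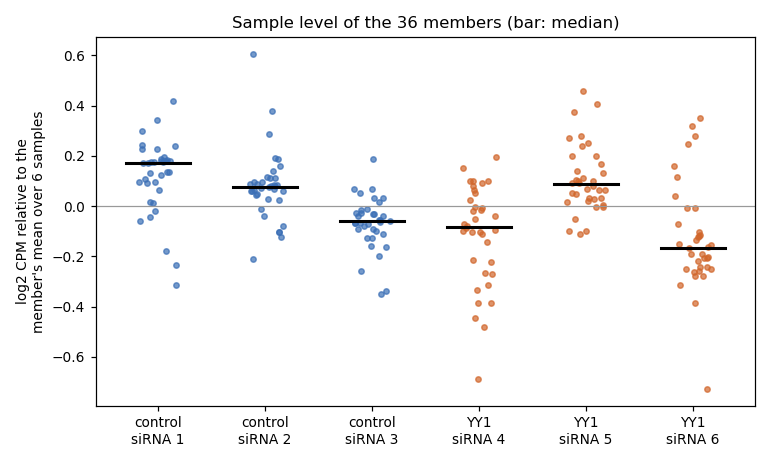
Log2 CPM of the 36 members relative to each member's mean over the 6 samples (vertical axis), by sample (horizontal axis); each point is 1 member and the bar is the median. The bars are highest in control sample 1 (0.17) and lowest in YY1 siRNA sample 6 (-0.17), and those of control sample 3 and YY1 siRNA samples 4 and 5 lie between.

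Of the genes that fold, modify and cross-link collagen, 23 were tested and 0 passed with either tool, with 2 lower and 0 higher at an unadjusted p under 0.05, against 5.46% and 5.38% of all genes tested. The median log2 fold change of the 23 was -0.080, with 17 below 0, against 49.8% of all genes below 0. The 2 were P3h1, a prolyl 3-hydroxylase, at 45.5, 48.5 and 41.2 CPM in the controls and 40.0, 38.3 and 36.1 CPM after YY1 siRNA (adjusted p 0.341) and Loxl2, a lysyl oxidase that starts cross-links, at 290.5, 272 and 247 CPM in the controls and 240.5, 242 and 197 CPM after YY1 siRNA (adjusted p 0.377). In both, all YY1 siRNA samples lay below all controls, as they did for 8.91% of all genes tested. These were not the only tested genes of the list with that order. P4hb, P4ha1 and Plod2, which hydroxylate proline or lysine in collagen, were abundant at 2056 ± 27.8 and 2192 ± 172 CPM (control, then YY1 siRNA; SD, n = 3), 1182 ± 61.5 and 1118 ± 77.5 CPM and 1124 ± 60.6 and 1091 ± 46.5 CPM. Serpinh1, the gene of the collagen chaperone HSP47, had 4 counts over the 6 samples, and Lox, the founding lysyl oxidase, had 10. GENCODE M21, which may differ from the annotation used for the counting, places no other gene over the exons of Serpinh1. It places 1 noncoding gene over 30 bases of Lox on the opposite strand.

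Matrix proteases and their inhibitors gave 0 of 21 past the threshold, with 2 higher and 2 lower at an unadjusted p under 0.05 and a median of -0.032. Of all genes tested, 5.38% were higher and 5.46% lower at such a p, the shares to set beside this and the next 2 lists. The metalloprotease Mmp3 was at 24.9 ± 1.11 and 30.0 ± 4.08 CPM in control and YY1 siRNA samples (SD, n = 3), and Plat, the gene of tissue plasminogen activator, at 128 ± 5.78 and 148 ± 13.1 CPM. Timp3, a matrix-bound metalloprotease inhibitor, was at 148 ± 9.79 and 130.4 ± 9.83 CPM. The edgeR adjusted p of these 3 genes ran from 0.379 to 0.429. Other matrix glycoproteins and proteoglycans gave 0 of 23 and a median of -0.053, with Dcn higher (9.68 ± 0.759 and 11.9 ± 0.751 CPM) and Tnxb lower (2.49 ± 0.0504 and 1.74 ± 0.0991 CPM) at an unadjusted p, neither past the adjusted threshold. TGF-beta ligands, receptors and target genes, a pathway known to raise collagen expression, gave 0 of 21 and a median of -0.00016. Of the 21 genes, 11 were below 0, against 49.8% of all genes tested, and 1 was higher and 1 lower at an unadjusted p. Tgfb1 itself was at 121 ± 10.9 and 117 ± 10.7 CPM, and Cyr61, a matricellular gene, at 218 ± 0.630 and 247 ± 5.44 CPM (adjusted p 0.362).

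Summed over the fibroblast and pericyte markers, the level was 2525 to 2947 CPM in the controls and 2736 to 4122 CPM after YY1 siRNA, most of it S100a4 (1520.3, 1618 and 2065 CPM in the controls and 1826, 2049 and 3191 CPM after YY1 siRNA). Of the 10 markers tested, 2 were higher and 1 lower at an unadjusted p under 0.05 (10.8% of all genes tested either way) and 0 passed with edgeR, while DESeq2, which called 0.148% of all genes, called Anpep (41.4, 36.8 and 30.2 CPM in the controls and 22.8, 25.8 and 25.3 CPM after YY1 siRNA, DESeq2 adjusted p 0.0230). Endothelial markers summed to 170.4 to 199 and 156 to 193 CPM, nearly all of it Flt1 and Cdh5, and Eng was lower at an unadjusted p (edgeR adjusted p 0.420). Microglia and macrophage markers summed to 141 to 147 and 129 to 142 CPM, and Tmem119 was lower at an unadjusted p (edgeR adjusted p 0.309). The samples are of a single cell line, and the part of any such cells in the members' levels was not tested.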

How the data were processed

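RNA-seq of 3 control siRNA and 3 YY1 siRNA samples was used as the authors deposited it, as whole-number read counts per gene symbol, 1 table per sample. The submitters' processing notes name STAR 2.6.1a, edgeR 3.30.0 and build mm10. Counting program, gene annotation and use of strand were not given in the sources used here. Reads of a member and of an antisense neighbour may therefore be mixed, and 11 members share exon bases with another gene. The 2 rows that name no gene (7.87% to 11.3% and 1.01% to 1.15% of counts) were left out. At these depths, 3 counts equal 0.145 to 0.191 CPM.

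The main test was edgeR 4.0.16 (R 4.3.3), quasi-likelihood F, two-sided, with filterByExpr, TMM and robust dispersion, over 12148 genes, with a threshold of 0.05. Alternatives were RLE factors, library size alone, no low-count filter, at least 1 CPM in 3 samples, thinned counts, no robust estimation, the no-gene share as covariate, length and GC offsets (mgcv 1.9.3), DESeq2 1.42.0, limma-voom (limma 3.58.1) and leaving out each sample. Exon lengths (union of exons) came from GENCODE M21, matched for 98.0% of symbols, with the longest transcript as the alternative. Intervals on count ratios are exact binomial and cover counting error only. The fit was tested on simulated counts.

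The members and gene lists were chosen with earlier results of these data known. Values by sample are given for Yy1, for members with an unadjusted p under 0.05 or with groups that do not overlap, and for the 3 members of each class with the highest CPM. The values of Col1a1 were added after they were seen. Up to 4 genes with the smallest p are named from each related list; P4hb, P4ha1, Plod2, Serpinh1, Lox, Tgfb1, Lama3 and S100a4 were named after their values were seen, as were the dropped partner chains. Means are given ± SD. A member and 2 genes of related lists are counted in the totals and are not reported here one by one.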

Additional observations from a re-analysis of the deposited data

Results flagged for a closer look

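Counts that fell in no gene, left out of the comparisons, made up 10.7% of sample 5 and 11.3% of sample 6, both YY1 siRNA, and at most 9.03% of a control sample. Lamb2, Col9a3, Col17a1 and Col20a1 were the members with samples 5 and 6, and not sample 4, above all controls. For Col17a1 this was by a margin of 0.690 CPM in sample 5 against 0.688 in control sample 3, with 13 counts in each. The share of all genes tested with this pattern was not counted. A link to the no-gene share was not tested beyond the covariate fit.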

How the results depend on the processing

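Under 10 other settings and 6 fits that each left out 1 sample, no member passed the adjusted threshold; the smallest adjusted p was 0.0553, for Lamb2 without YY1 siRNA sample 4. Yy1 passed in every fit. Members at an unadjusted p under 0.05 numbered 2 to 7 when a sample was left out, with 7, all lower, without YY1 siRNA sample 5. The share of all genes tested at such a p was 5.40% to 19.1% over these 6 fits, and 11.7% without sample 5. Of 555 refitted values of 35 members, 520 kept their sign and 35, from 16 members, did not; none of these had passed a threshold, and the cause was not tested. The sign turned with library size alone for Col6a1 (-0.014), and in thinned counts for Col23a1 (0.042) and Lama3 (0.083). With the no-gene share as covariate it turned for Col5a2 (0.029), Col9a3 (-0.082), Col20a1 (-0.081), Col8a1 (0.034), Col18a1 (0.035), Col17a1 (-0.0087), Lama3 (0.089), Lamb1 (0.0032) and Sparc (0.0028). With length and GC offsets it turned for Col7a1 (0.056), Col18a1 (0.0080), Col23a1 (0.018), Lama3 (0.020) and Lamb1 (0.0088). Leaving out 1 sample gave log2 ranges across 0 of -0.13 to 0.033 for Col5a2, -0.042 to 0.17 for Col27a1, -0.069 to 0.059 for Col6a1, -0.035 to 0.14 for Col6a2, -0.18 to 0.11 for Col7a1, -0.32 to 0.035 for Col12a1, -0.070 to 0.016 for Col8a1, -0.14 to 0.0020 for Col18a1, -0.14 to 0.10 for Col23a1, -0.31 to 0.19 for Lama3, -0.11 to 0.017 for Lamb1, -0.0084 to 0.31 for Tnc, -0.089 to 0.011 for the ratio Col6a1/Col6a2 and -0.25 to 0.018 for the ratio Col6a3/Col6a1. The shorter motif AANATGG was found for 1 member symbol against 0 for the longer one. No paired analysis was possible because the groups share no sample number. At least 1 CPM in 3 samples kept 32 members and thinning 35. A planned count of glycine repeats in the proteins was not run, since no protein sequences were used here. Depth limits the 4 members under 1 CPM, whose intervals reach past 1.5-fold.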
